A study of Mus musculus with 36 samples.

Results

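The nuclear-encoded subunits of the mitochondrial respiratory chain were examined in the livers of mice fed a purified diet with or without tomato powder. Genes were taken by symbol: those starting with Ndufa, Ndufb, Ndufc, Ndufs or Ndufv and a digit (complex I), Sdha to Sdhd (complex II), Uqcr (complex III), Cox4 to Cox8 (complex IV) and Atp5 (complex V), without symbols ending in a pseudogene mark (-ps). This gave 88 of the 53715 genes in the count table: 38 in complex I, 4 in complex II, 8 in complex III, 21 in complex IV and 17 in complex V. Ndufa4 and Ndufa4l2 were placed in complex IV, where their proteins are now assigned, despite their names. Of the 88 genes, 84 were annotated as protein coding and 4 as processed pseudogenes, and they lay on 19 chromosomes with 3 on X.

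The mice were C57BL/6 males aged 10 weeks, and no genotype other than the strain was given. From 4 weeks of age they ate AIN93G, a purified rodent diet (Control), or that diet with 10% by weight of powder from red tomatoes (Red) or from tangerine tomatoes (Tangerine), for 6 weeks. Red tomatoes carry lycopene mainly in its all-trans form and tangerine tomatoes mainly in cis forms. Each diet had 12 libraries of bulk liver RNA from different mouse numbers, although the labels give 11 to 12 mice a group, so p-values measure the spread between these libraries. Total counts ranged from 21290169 to 33810573 with a median of 27002946. Levels are given as CPM, the share of a library that falls to a gene, after TMM scaling of library sizes (trimmed mean of M values).

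The respiratory chain sits in the inner mitochondrial membrane. Complexes I and II take electrons from NADH and succinate, complex III passes them on to cytochrome c and complex IV hands them to oxygen, while complexes I, III and IV pump protons whose return flow drives ATP synthesis by complex V. All subunits of complex II and most subunits of the other complexes are encoded in the nucleus, and the rest are encoded in the mitochondrial genome. Hepatocytes are rich in mitochondria and use the chain to fuel gluconeogenesis, urea synthesis and fatty acid oxidation.

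All 4 members of complex II, all 8 of complex III and all 17 of complex V had enough reads to test, as did 35 of 38 in complex I and 14 of 21 in complex IV. This left 78 tested members, with a median level of 70.9 CPM. Among all 14068 tested genes the median was 10.7 CPM. All 88 members together, tested or not, took 0.860 ± 0.056% of a library's counts on Control (SD, n = 12), 0.846 ± 0.034% on Red (SD, n = 12) and 0.854 ± 0.046% on Tangerine (SD, n = 12). Control stood highest through 1 library, Control 137 (named by diet and mouse number), with 1.02%: the other 11 Control libraries averaged 0.846 ± 0.028% (SD, n = 11). Complex V took the most, between 0.285% and 0.290% in the 3 diet means, and complex I between 0.215% and 0.219% (0.213% on Control without Control 137). In bulk tissue, fewer cells of a type and less RNA per cell cannot be told apart.

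Compared as CPM per kilobase of exon (all annotated exons of a gene joined), the catalytic beta subunit of ATP synthase, Atp5b, was the most abundant member at 282, followed by the small complex IV subunit Cox8a at 279 and by Cox6a1, another small subunit of that complex, at 265. The alpha subunit that alternates with Atp5b in the ATP synthase head, Atp5a1, stood at 45.7 on the same scale. Among the genes for the proton-carrying c ring, Atp5g3 held 150 CPM per kilobase, Atp5g2 9.44 and Atp5g1 7.03. The membrane anchor Sdhd led complex II at 176, above the flavoprotein Sdha at 126, the iron-sulfur subunit Sdhb at 93.0 and the other anchor Sdhc at 42.8. In complex III the small subunit Uqcr10 was highest at 167, the Rieske iron-sulfur protein Uqcrfs1 stood at 126 and the core protein Uqcrc1 was lowest at 38.4. Complex I had the lowest median of the 5 complexes, 40.2 CPM per kilobase, and ranged from 0.724 for the pseudogene Ndufa11b to 116 for the small accessory subunit Ndufa1. Its NADH-binding flavoprotein Ndufv1 stood at 54.7 and the iron-sulfur subunit Ndufs1 at 7.90. The order within a complex depended on the length used: over the length of 1 principal transcript per gene, the leading members were Ndufa6, Sdhb, Uqcrh, Ndufa4 and Atp5b, so 1 of 5 complexes kept its leading gene. The order of the complexes depended on it too: by principal transcript the medians were highest in complex II (178) and complex IV (146), ahead of complex III (122).

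Complex IV has several subunits with tissue-specific isoforms. The forms known from liver and most tissues were abundant: Cox6a1, Cox8a, Cox7a2 (126 CPM per kilobase) and Ndufa4 (159). Cox5a stood at 48.8, under the median of the complex (59.6). The supercomplex-associated Cox7a2l stood at 39.0. The heart and muscle form Cox7a1 held 1.48 CPM per kilobase and the hypoxia-inducible Ndufa4l2 0.997. Another hypoxia-linked isoform, Cox4i2, had 75 counts over 30 libraries in all, and Cox8b, a muscle and brown fat form, had 102 counts over 12 libraries, of which 91 came from Red 186. That library also held the highest summed level of brown adipocyte markers, 12.96 CPM against at most 0.079 in any Control library, and of muscle markers, 27.1 CPM against at most 1.10. The other untested members with counts, Cox6b2 and Cox7b2, had 77 and 3. The table listed 6 members at 0 in every library: Cox4i1, Ndufa13, Cox6a2, Cox8c, Ndufb4c and Ndufs6b. Cox4i1 encodes a subunit that every respiring cell uses, so its level is only said here to be listed at 0.

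**Figure D1:**
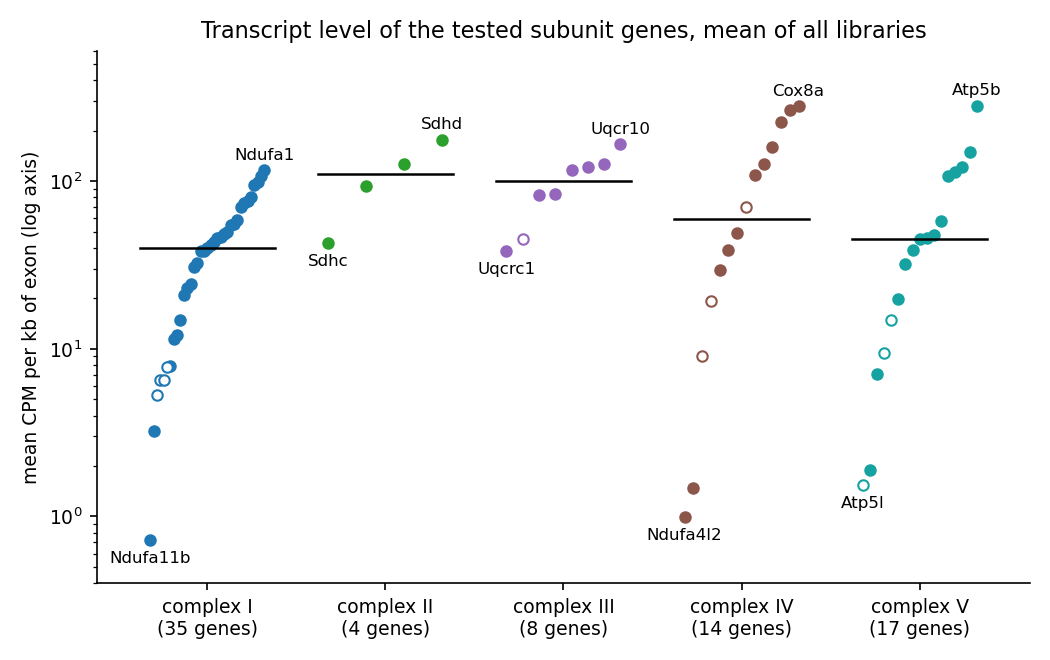
Level of each tested member (mean over 36 libraries, CPM per kilobase of exon, log axis) by complex, with 1 point per gene. Complexes II and III sit highest by their medians (110 and 100.1), and complex I has the lowest median (40.2). Over principal transcripts, not drawn, complex IV rather than complex III comes after complex II.

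Several members have near-copies elsewhere in the genome, which bears on how well reads can be assigned to them. For 42 tested members, no stretch of 50 bases of the principal transcript occurred in the transcripts of a gene elsewhere. In 11 members at least 25% of such stretches did, led by Atp5g2 (87.4%), Atp5l (68.5%) and Cox7c (53.0%). Those 11 ranged from 5.61 to 39.6 CPM with a median of 14.2, whereas the other 67 had a median of 92.6 CPM, so the levels of these genes are uncertain where reads shared with copies were dropped or split. The counting program was not given in the sources used here. Members were also short, with a median principal transcript of 823.5 bases against 2697 among all tested genes.

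Nuclear subunit genes are textbook targets of nuclear respiratory factor 1 (NRF1), ETS-family factors such as GABP, YY1 and estrogen-related receptors. RefSeq promoter windows (GRCm38.p6, 250 bases before to 50 bases after the annotated start) were matched by Entrez gene identifier, chromosome and strand. They were found for 64 of the 78 tested members and for 9665 tested genes in all. The NRF1 letters GCGCATGCG occurred, on either strand, in 8 member windows (12.5%, against 3.60% of all windows): Atp5g2, Atp5k, Atp5l, Cox6a1, Ndufa11, Ndufa8, Uqcr11 and Uqcrc1. The estrogen-related receptor letters AAGGTCA occurred in 8 as well (12.5% against 3.27%), and the YY1 letters AAGATGG in 10 (15.6% against 7.14%). For the ETS letters CCGGAAG the counts were 15 windows (23.4% against 18.1%), for CCAAT 27 (42.2% against 38.9%) and for TATAAA 5 (7.81% against 7.34%). The ETS letters end, and the YY1 and estrogen-related receptor letters begin, with AAG, so such matches can overlap. A match is a description of the letters, not of binding.

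The windows printed here run from 150 bases before to 10 bases after the RefSeq start in the gene's own direction, with matches to the NRF1, ETS and YY1 letters or their reverse complements in capitals. Ndufc2 (chr7:97399853-97400012, plus strand) is shown because it alone passed the test for a diet difference, and its window held no match. Uqcrh (chr4:116075061-116075220, minus strand), Uqcr11 (chr10:80406812-80406971, minus strand), Cox8a (chr19:7217607-7217766, minus strand) and Atp5e (chr2:174464092-174464251, minus strand) show how close to the start such letters sit in complexes III to V. The ETS letters began 10 bases before the start of Uqcrh, 66 before that of Uqcr11, 5 before that of Cox8a and 102 before that of Atp5e, and the NRF1 letters 5 before that of Uqcr11. In complexes I and II, 4 and 1 windows held such letters but also more than 30 exon bases, and are not shown.
Ndufc2: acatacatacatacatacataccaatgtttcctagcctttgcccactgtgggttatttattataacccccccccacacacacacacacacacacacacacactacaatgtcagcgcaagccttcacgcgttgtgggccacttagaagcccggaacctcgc
Uqcrh: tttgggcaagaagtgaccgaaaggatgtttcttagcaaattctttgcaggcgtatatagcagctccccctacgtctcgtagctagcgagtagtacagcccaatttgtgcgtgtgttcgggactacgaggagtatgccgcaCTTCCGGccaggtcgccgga
Uqcr11: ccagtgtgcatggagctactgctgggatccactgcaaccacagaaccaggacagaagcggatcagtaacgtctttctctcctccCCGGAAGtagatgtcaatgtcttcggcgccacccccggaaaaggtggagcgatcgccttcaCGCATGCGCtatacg
Cox8a: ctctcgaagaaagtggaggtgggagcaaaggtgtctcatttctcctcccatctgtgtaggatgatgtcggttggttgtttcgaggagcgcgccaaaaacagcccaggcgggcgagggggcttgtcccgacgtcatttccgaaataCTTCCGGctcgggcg
Atp5e: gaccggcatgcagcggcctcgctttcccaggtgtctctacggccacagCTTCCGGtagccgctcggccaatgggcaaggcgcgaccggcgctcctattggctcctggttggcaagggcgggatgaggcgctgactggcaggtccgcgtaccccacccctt

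One Control library stood apart in these genes and is named before the comparisons. Summarised as the median over the 78 members of log2 CPM minus the gene's own mean, Control 137 lay at 0.55, and the other 35 libraries between -0.17 (Red 170) and 0.20 (Tangerine 225). In Control 137, 72 of 78 members were above their own mean and 57 had their highest level of all libraries. The 6 members below their mean there were Ndufs1, Sdha, Uqcrc2, Atp5b, Atp5f1 and Atp5s, all with principal transcripts of 1599 bases or more. Ndufs1 stood at 35.8 CPM in Control 137 against 67.0 ± 4.21 CPM in the other Control libraries (SD, n = 11). That library had the lowest total count, ranked first for the slope of expression on GC content over genes that are no members, had the most negative slope on transcript length, and held the lowest summed Kupffer cell (66.7 CPM) and endothelial (33.9 CPM) markers. The part of each of these in the members' levels was not tested. Results that rest on Control 137 are therefore also given without it.

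Red 177 and Control 245, which ranked next after Control 137 for the GC slope, were the 2 lowest libraries for 18 of the 78 members. Uqcrfs1 stood at 116.0 CPM in Red 177 and 117.0 CPM in Control 245, and at 153.5 CPM or more in every other library. Ndufa4 stood at 160.6 and 160.7 CPM in this pair and at 195 CPM or more elsewhere. Ndufa1 was among the highest in the same pair, at 66.2 and 67.8 CPM, so members did not deviate together there. The 5 hepatocyte markers summed to between 81752 and 120804 CPM in every library. T cell markers summed to 158.7 CPM in Red 186 against a Red median of 2.66, and pancreatic acinar markers to 9.20 CPM in Tangerine 216 against at most 0.297 in any Control or Red library.

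**Figure D2:**
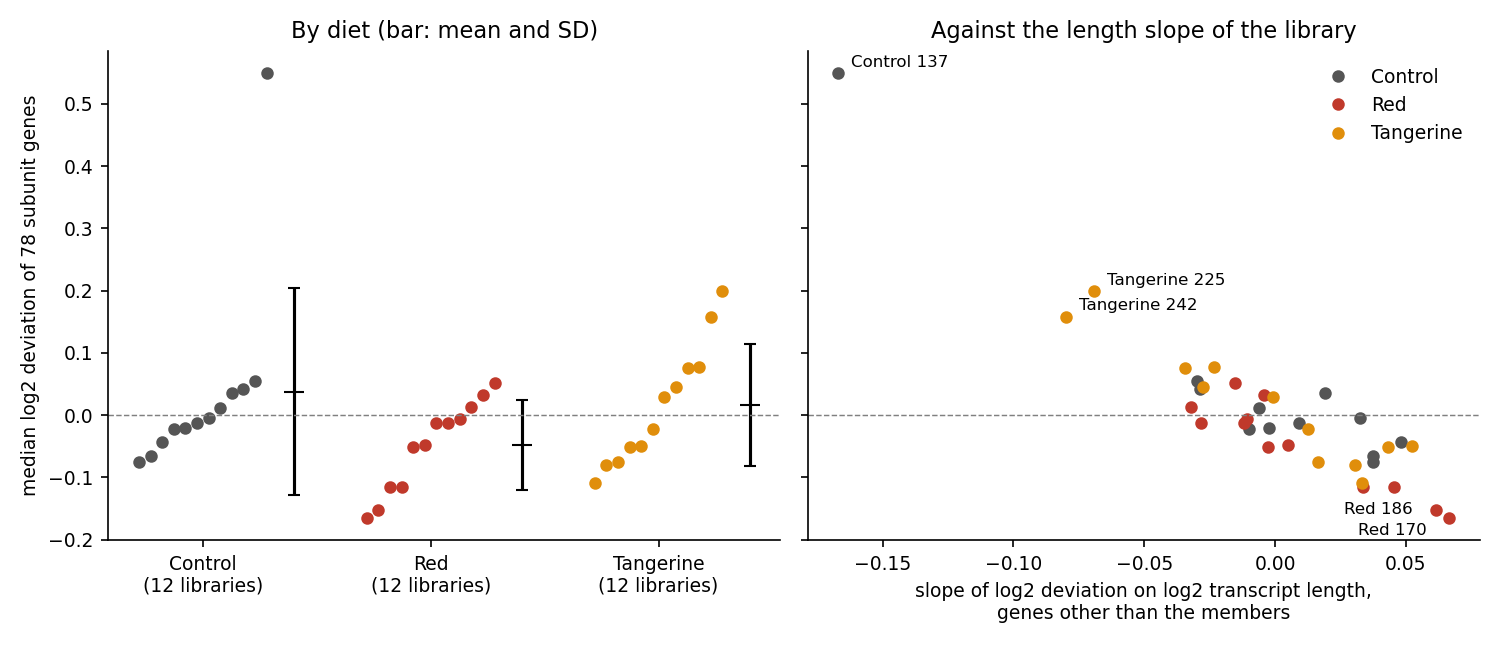
Deviation of the members in each library (median over 78 members of log2 CPM minus the gene mean, y axis), by diet. Control 137 sits at 0.55 and the other 35 libraries between -0.17 and 0.20.

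The median over members was slightly lower on Red than on Control in all 5 complexes, and no single member passed the test. Red relative to Control gave a fitted log2 fold change below 0 in 76 of 78 members, with a median of -0.079. Over all tested genes 51.5% were below 0 and the median was -0.005. In edgeR's quasi-likelihood test with Benjamini-Hochberg adjustment over all genes, 0 members had an adjusted p under 0.05 (background 0.149% of genes), whereas DESeq2 called 2 (1.19% of all genes) and limma-voom 4 (10.5% of all genes). At an unadjusted p under 0.05 there were 16 members, all lower on Red (20.5%, against 6.63% of all genes called lower in the same way). Of the members, 3 differed by more than 0.2 on the log2 scale, and no member had Red and Control libraries that did not overlap. The matching shares of all tested genes are not given here, so neither count is set against a background. Without Control 137 the fold change was below 0 in 56 members, the median was -0.035 and 7 members had an unadjusted p under 0.05: Ndufc2, Uqcrfs1, Cox7a2, Cox7c, Atp5c1, Atp5g3 and Atp5l. All 7 were lower on Red, which is 8.97% of members, near the 8.09% of all genes lower in the same fit.

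The size of the difference also moved with the fit. The median over members was -0.022 with limma-voom (54 below 0), -0.048 with surrogate variables, -0.041 with the length slope of each library as covariate and -0.12 with its GC slope, where 47 members had an unadjusted p under 0.05, all lower on Red (background 8.49%). The GC slope averaged -0.26 ± 1.78 on Control (-0.61 ± 1.39 without Control 137, n = 11), 0.42 ± 1.195 on Red and -0.16 ± 0.86 on Tangerine (SD, n = 12 each). Its part in the difference was not tested beyond that covariate, which was chosen after seeing the data.

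By complex, the fold change on Red was below 0 in 34 of 35 members of complex I (median -0.079), 4 of 4 of complex II (-0.10), 8 of 8 of complex III (-0.068), 13 of 14 of complex IV (-0.066) and 17 of 17 of complex V (-0.088). The median deviation of a complex varied between libraries within diets with SDs of 0.13, 0.078, 0.12, 0.13 and 0.11 in that order. Members varied together across libraries (described below), so these counts are not of independent genes. The exceptions were Ndufv3, a small accessory subunit, at 0.028 and Ndufa4l2 at 0.085. Without Control 137 the complex medians were -0.026, -0.070, -0.034, -0.014 and -0.059 in the same order. Thus complexes II and V kept the lower medians, and complex IV moved closest to 0. Within complex I, the 7 nuclear core subunits that carry its redox centres had a median of -0.039 and the other 28, the accessory subunits, -0.094, but without Control 137 these were -0.025 and -0.030.

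**Figure D3:**
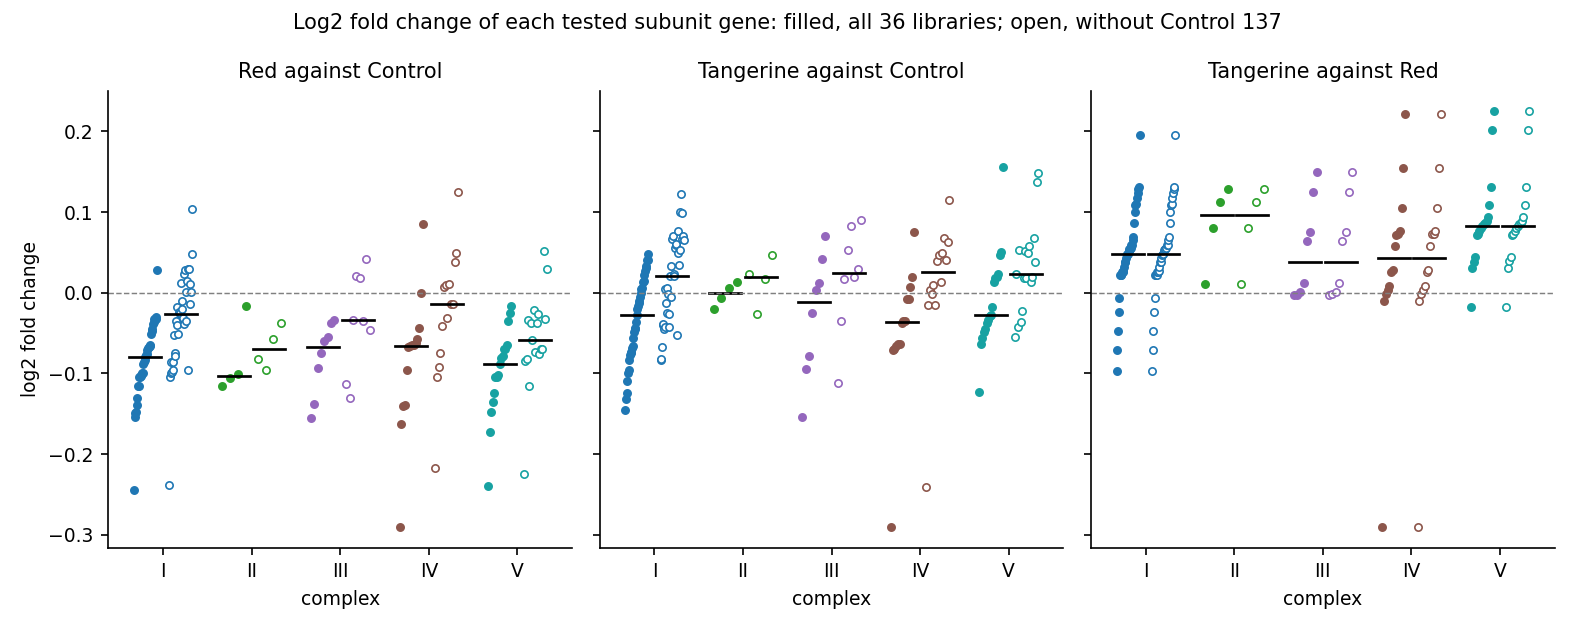
Fitted log2 fold change of each tested member by complex for the 3 contrasts between diets. Each gene has a filled point (all 36 libraries) and an open point (without Control 137). Of 78 filled points, 76 lie below 0 for Red against Control. For Tangerine against Red 67 filled points lie above 0, and for Tangerine against Control 27. Of the open points 56 lie below 0 for Red against Control. Above 0 lie 67 open points for Tangerine against Red and 53 for Tangerine against Control.

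Ndufc2, an accessory subunit of the membrane arm of complex I (chromosome 7, 97400003 to 97407802, plus strand, GRCm38), had the clearest values. On Control it ranged from 36.5 to 52.2 CPM with a median of 45.9, on Red from 33.6 to 40.9 with a median of 38.04, and on Tangerine from 36.9 to 51.2 with a median of 43.8. All 12 Red libraries lay below the Control median and below the Tangerine median, and 9 of 12 Control and 8 of 12 Tangerine libraries lay above every Red library. Mean levels were 45.0 ± 5.37 CPM on Control, 37.95 ± 2.60 on Red and 43.5 ± 3.90 on Tangerine (SD, n = 12 each). Relative to Control, Red stood at -0.24 on the log2 scale (SE 0.058, edgeR adjusted p 0.0591). Relative to Red, Tangerine had 0.20 (SE 0.058, edgeR adjusted p 0.0726), and relative to Control it had -0.049 (SE 0.058, edgeR adjusted p 1). Control 137, at 47.1 CPM, was not an extreme for this gene.

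In the test of any difference among the 3 diets, Ndufc2 was the 1 member called (edgeR adjusted p 0.0414, and 0.0442 without Control 137, where 1.39% of all genes were called). The same test called 1.18% of all tested genes and 1 of 78 members is 1.28%, close to that background. The call is near the threshold: leaving out each of the 36 libraries in turn gave an adjusted p from 0.0226 to 0.0803, and the call was kept in 17 of 36. It was lost without any 1 of Control 122, 136, 182, 183 or 240, Red 133, 156, 157, 166, 175, 177, 186, 199 or 202, or Tangerine 198, 215, 216, 217 or 242. With a clock score as covariate the edgeR adjusted p was 0.291, although the fold changes were -0.25 (Red against Control) and 0.20 (Tangerine against Red). That fit called 1 of all 14068 tested genes for any difference, against 166 without the covariate, so the loss of the call was not particular to Ndufc2. The clock score, the first principal component of 15 circadian clock genes, averaged 0.80 ± 3.03 on Control, -2.56 ± 2.35 on Red and 1.76 ± 2.30 on Tangerine (SD, n = 12 each), and was lowest on Red, as Ndufc2 was. Its part in the members' levels was not tested beyond that covariate.

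Atp5g3, which encodes the c-ring protein of complex V (chromosome 2, 73908447 to 73911326, minus strand), had the smallest p of its complex. It ranged from 310.3 to 367.4 CPM on Control with a median of 337.4, from 286.4 to 331.8 on Red with a median of 314.5, and from 314.0 to 366.4 on Tangerine with a median of 326.6. All 12 Red libraries lay below the Control median and 8 of 12 Control libraries lay above every Red library. On Red relative to Control it differed by -0.12 on the log2 scale (SE 0.037, edgeR adjusted p 0.118). The other c-ring genes had wider errors, with -0.17 (SE 0.086) for Atp5g1 and -0.11 (SE 0.11) for Atp5g2. In the catalytic head, Atp5b had -0.025 and Atp5a1 -0.069. Atp5c1, the gamma subunit that turns inside the head, had -0.088 (SE 0.038, edgeR adjusted p 0.299).

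Cox7c, a small subunit of complex IV (chromosome 13, 86044816 to 86046904, minus strand), had the largest fold change between Red and Control with all libraries, but not without Control 137, where Ndufc2 (-0.24) and Atp5l (-0.23) exceeded it. It ranged from 7.67 to 17.5 CPM on Control with a median of 10.6, from 7.67 to 10.45 on Red with a median of 9.21, and from 7.96 to 17.02 on Tangerine with a median of 9.97. The highest Control value was that of Control 137. Its fold change on Red relative to Control was -0.29 on the log2 scale (SE 0.10, edgeR adjusted p 0.190), and -0.22 without that library. As 53.0% of the 50-base stretches of Cox7c occur in 3 other genes, its level is uncertain. Cox7a2, the liver form of another small subunit, stood at 123.6 ± 15.5 CPM on Control, 112.1 ± 6.09 on Red and 120.6 ± 8.88 on Tangerine (SD, n = 12 each), with -0.14 on the log2 scale on Red relative to Control (SE 0.053, edgeR adjusted p 0.231). Cox5a had -0.062, Cox6a1 -0.043 and Cox8a -0.065, with adjusted p-values of 0.659, 0.874 and 0.750 (edgeR).

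Complex II is the one complex that is also an enzyme of the citric acid cycle, with a catalytic head and a membrane anchor. Of the head genes, Sdha had -0.017 (SE 0.043) for Red against Control and Sdhb -0.10 (SE 0.061), the latter near the values of both anchors. Sdhc, an anchor (chromosome 1, 171127165 to 171150603, minus strand), ranged from 115.9 to 177.6 CPM on Control with a median of 141.4, from 113.0 to 144.4 on Red with a median of 132.4, and from 136.1 to 159.9 on Tangerine with a median of 140.9. The groups overlap widely, and 11 of 12 Red libraries lay below the Control median. Relative to Control, Sdhc on Red had -0.12 on the log2 scale (SE 0.047, edgeR adjusted p 0.273), and -0.083 without Control 137, the highest library. Sdhd, the other anchor, had -0.11 (SE 0.047, edgeR adjusted p 0.327).

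In complex III, Uqcrfs1, which carries the Rieske iron-sulfur cluster (chromosome 13, 30540308 to 30545362, minus strand), had the smallest p for Red against Control. Its Control libraries ranged from 117.0 to 199.4 CPM with a median of 187.2, its Red libraries from 116.0 to 171.6 with a median of 164.6, and its Tangerine libraries from 170.4 to 191.4 with a median of 178.3. All 12 Red libraries lay below the Control median and 10 of 12 Tangerine libraries lay above every Red library. Uqcrfs1 differed on the log2 scale by -0.14 on Red relative to Control (SE 0.061, edgeR adjusted p 0.319) and of 0.15 on Tangerine relative to Red (SE 0.061, edgeR adjusted p 0.215). Both low values at 116.0 and 117.0 belong to Red 177 and Control 245, described above.

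Between the tomato diets, most members had fitted levels higher on Tangerine than on Red, again with no call. Of 78 members 67 had a fold change above 0, with a median of 0.058 against -0.005 over all tested genes. edgeR's test called 0 members at an adjusted p under 0.05, against 1.71% of all tested genes, whereas DESeq2 called 2 (2.99% of all genes) and limma-voom 1 (5.20% of all genes). At an unadjusted p under 0.05 there were 16 members, all higher on Tangerine (20.5%, against 6.60% of all genes). These included Ndufc2, Sdhc, Sdhd, Uqcrc1, Uqcrfs1, Cox7c and Atp5g3. Control libraries take no part in this contrast other than in the shared spread, and leaving out Control 137 left the median at 0.058. The contrast shares its Red libraries with Red against Control, so low Red values enter both. The median was 0.026 with limma-voom, 0.028 with the length slope and 0.099 with the GC slope as covariate, where 28 members had an unadjusted p under 0.05, all higher on Tangerine (background 8.41%).

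By complex, the fold change of Tangerine against Red was above 0 in 30 of 35 members of complex I (median 0.048), 4 of 4 of complex II (0.096), 6 of 8 of complex III (0.038), 11 of 14 of complex IV (0.043) and 16 of 17 of complex V (0.083). Uqcrc1, a core protein of complex III (chromosome 9, 108936633 to 108949623, plus strand), ranged from 134.5 to 167.8 CPM on Red with a median of 152.3, from 154.5 to 177.1 on Tangerine with a median of 166.0, and from 144.7 to 182.1 on Control with a median of 156.3. All 12 Tangerine libraries lay above the Red median and 8 of 12 Red libraries lay below every Tangerine library. Relative to Red, Tangerine differed by 0.12 on the log2 scale (SE 0.039, edgeR adjusted p 0.0923, and 0.0539 without Control 137). For Sdhc, where all 12 Tangerine libraries also lay above the Red median, it was 0.13 (SE 0.047, edgeR adjusted p 0.159). Ndufs8 and Ndufv1, which carry redox centres of complex I, had 0.12 (SE 0.059) and 0.10 (SE 0.040), with adjusted p-values of 0.315 and 0.211 (edgeR). Atp5s, annotated as a coupling factor of complex V, had the smallest p of its complex at 0.22 (SE 0.10, edgeR adjusted p 0.287) and a level of 3.84 CPM. Without Red 186 and Tangerine 216, which hold markers of other tissues, the median over members was 0.046, 62 members were above 0 and 7, all higher on Tangerine, had an unadjusted p under 0.05 (background 5.68%).

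**Figure D4:**
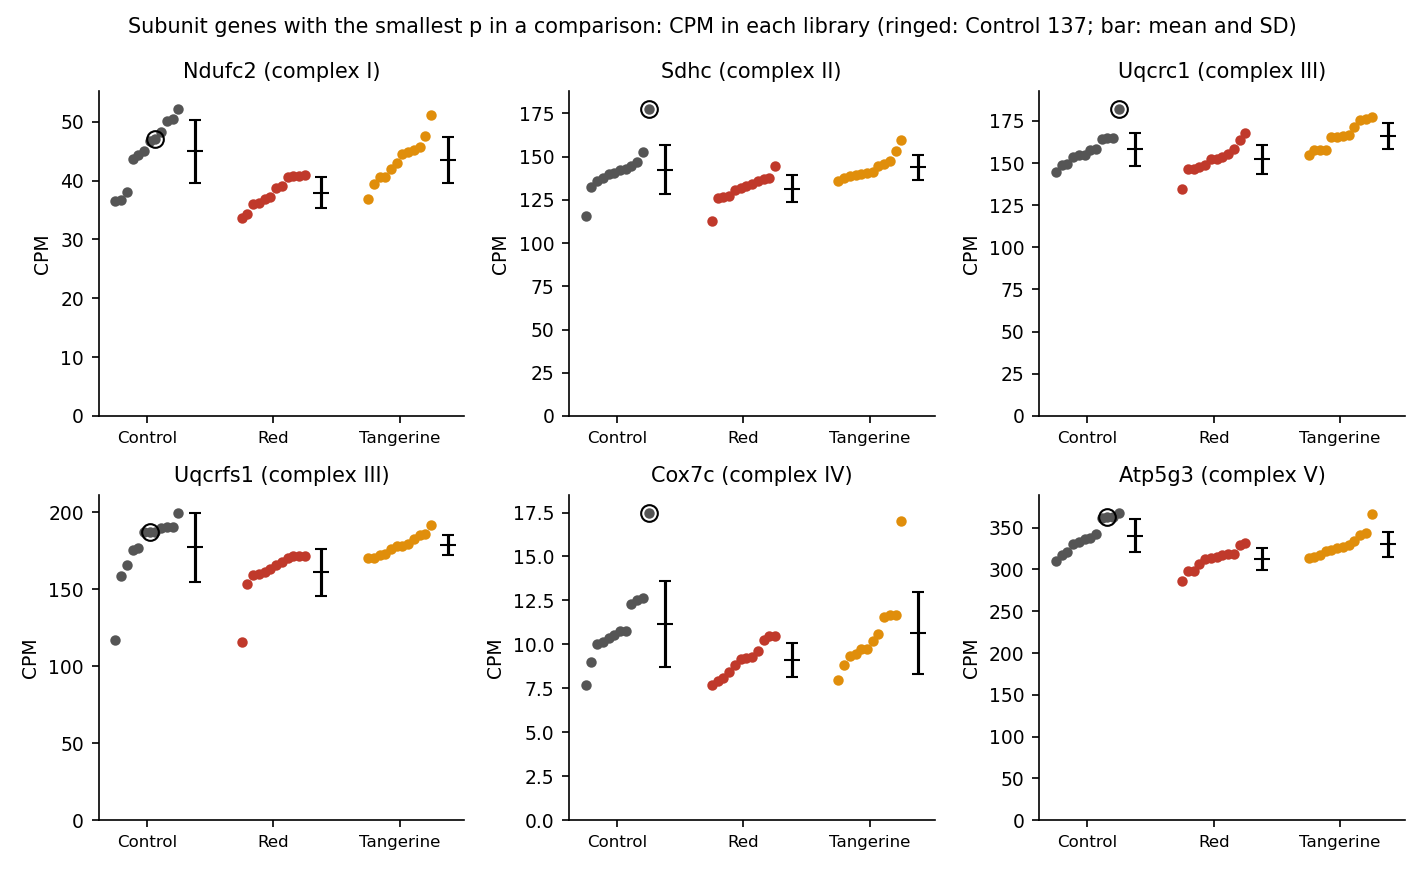
Level in every library (CPM, 12 points per diet) of Ndufc2, Sdhc, Uqcrc1, Uqcrfs1, Cox7c and Atp5g3, with the diet mean and SD and with Control 137 ringed. Red libraries of Ndufc2 lie between 33.6 and 40.9 CPM, all below the medians of the other diets, and in every panel the groups overlap.

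No member was called between Tangerine and Control. The fold change of Tangerine against Control was above 0 in 27 members and below 0 in 51, with a median of -0.027 against -0.012 over all tested genes. edgeR's test called 0 members (background 0.0142%), as did DESeq2 and limma-voom, and 0 members had an unadjusted p under 0.05 (background 5.47% in either direction). The complex medians were -0.028, 1.3e-05, -0.011, -0.036 and -0.027 for complexes I to V. The direction rested on Control 137: without it 53 members were above 0, the median was 0.022, and 2 members, Ndufs8 at 0.10 and Uqcrc1 at 0.090, had an unadjusted p under 0.05 (2.56% of members, against 3.41% of all genes higher in that fit). The smallest p in each complex belonged to Ndufb3 (-0.12, SE 0.078), Sdhb (-0.020, SE 0.061), Uqcrb (-0.15, SE 0.085), Cox7a1 (-0.29, SE 0.21) and Atp5s (0.16, SE 0.10).

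Other genes around the chain were read from lists of their own, in the same fit. The 13 subunits encoded in the mitochondrial genome were all lower on Red than on Control, with a median of -0.26, 0 calls and 4 at an unadjusted p under 0.05 (13.3% of all genes in either direction), and the median stayed at -0.26 without Control 137. They were all higher on Tangerine than on Red, with a median of 0.18, 0 calls and 1 at an unadjusted p under 0.05 (15.1% of all genes in either direction). For Tangerine against Control 10 of 13 were below 0, with a median of -0.074. Their median deviation per library averaged 0.13 ± 0.26 on Control, -0.15 ± 0.28 on Red and 0.044 ± 0.34 on Tangerine (SD, n = 12 each). It was lowest in Red 133 (-0.53) and Control 208 (-0.52), with GC slopes of 1.75 and 1.52. Red 177 and Control 245, with slopes of 2.37 and 1.86, stood at 0.14 and 0.12. The GC slope averaged highest on Red, and its part in these 13 genes was not tested. Of the 5 subunits and regulators of the chain that the symbol rule misses, 4 were below 0 on Red, with 0 calls and 1 at an unadjusted p under 0.05. Cyc1, the cytochrome c1 of complex III, had -0.041 for Red against Control (edgeR adjusted p 0.738) at 193 CPM. Ndufab1, the acyl carrier protein that is part of complex I, had 0.014 at 17.6 CPM, and Atpif1, the inhibitor of ATP synthase, had -0.10 (edgeR adjusted p 0.637) at 6.19 CPM.

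Assembly factors, which build the complexes but are not part of them, also had 0 calls in any contrast. For Red against Control 12 of 13 complex I factors were below 0 (median -0.080), 4 of 4 of complex II (-0.11), 6 of 6 of complex III (-0.016), 11 of 17 of complex IV (-0.040) and 4 of 5 of complex V (-0.082). In that order 3, 0, 0, 1 and 0 had an unadjusted p under 0.05, against 13.3% of all genes in either direction. Without Control 137 the medians for complexes III and IV were 0.021 and 0.003, so their direction rested on that library. Among 15 regulators of mitochondrial gene expression 12 were below 0 on Red, with a median of -0.10, 0 calls and 3 at an unadjusted p under 0.05 (background 13.3%). Ppargc1a, which encodes the coactivator PGC-1alpha, had 16.5 ± 5.27 CPM on Control, 12.0 ± 2.78 on Red and 15.3 ± 4.82 on Tangerine (SD, n = 12 each), which is -0.46 on the log2 scale for Red against Control (SE 0.17, edgeR adjusted p 0.218). Of 16 electron carrier genes 11 were below 0, with 0 calls and 2 at an unadjusted p under 0.05, near the background of 13.3%. Cycs, which encodes cytochrome c, had 27.4 ± 9.36 CPM on Control, 20.3 ± 6.57 on Red and 26.2 ± 6.25 on Tangerine (SD, n = 12 each), with -0.43 for Red against Control (SE 0.18, edgeR adjusted p 0.292).

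Across libraries, with the diet means removed, members varied together. Pearson's r of log2 CPM had a median of 0.48 over the 3003 pairs of members, against -0.003 over all pairs of tested genes. Within complexes the median was 0.57 for I, 0.098 for II, 0.35 for III, 0.53 for IV and 0.34 for V. Pairs across complexes had medians from 0.22 (I with II) to 0.55 (I with III). Without Control 137 the median over all member pairs was 0.33, and within complexes 0.41, 0.22, 0.28, 0.23 and 0.31. These are descriptions over 36 libraries that share depth, length and GC trends between genes. Members that went against the others were Ndufs1 (median r with the other members -0.46), Sdha (-0.31), Atp5s (-0.24) and Uqcrc2 (-0.16), all among the genes below their mean in Control 137. Ndufc2, the member called for diet, had a median r of -0.003 with the others, whereas Ndufb11, Ndufb9 and Ndufa6 had 0.71, 0.71 and 0.70. Without Control 137 the values were -0.081 for Ndufs1, -0.061 for Sdha, 0.045 for Uqcrc2, -0.26 for Atp5s and -0.084 for Ndufc2. The negative values of Ndufs1, Sdha and Uqcrc2 thus rested largely on that library, whereas that of Atp5s did not.

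**Figure D5:**
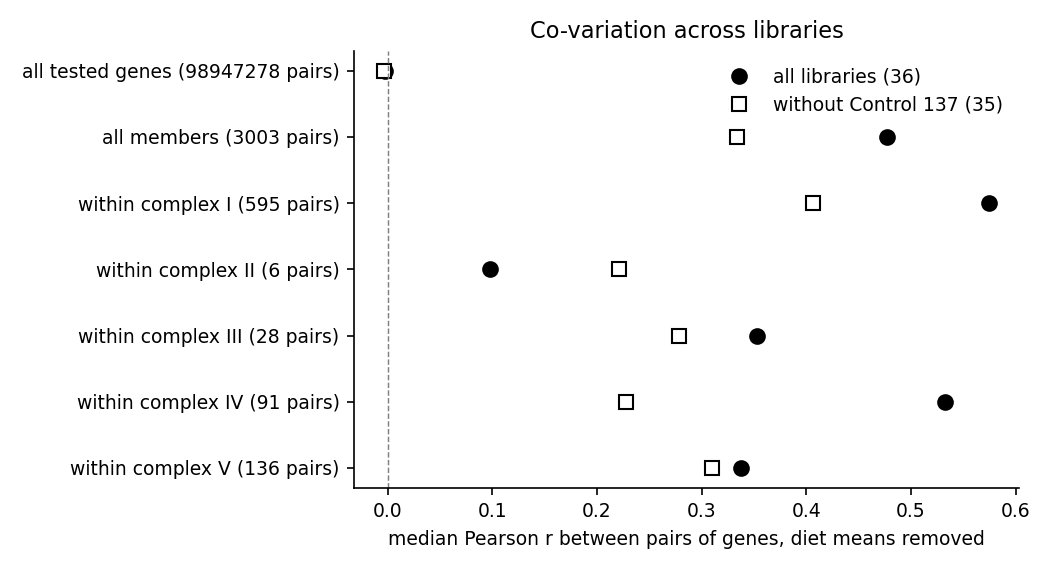
Pearson's r between pairs of genes across libraries after removing diet means, with all 36 libraries and without Control 137. Medians are drawn for all tested genes, for all members and within each complex. Pairs within complex I have the highest median with all libraries (0.57), and most medians are lower without Control 137, as in complex IV (0.53 to 0.23).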

How the data were processed

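The authors deposited gene-level read counts, without normalization, in 1 table of 53715 Ensembl identifiers by 36 liver libraries. Per the submitters' processing notes FastQC, Trimmomatic and edgeR were used with the build GRCm38.p6, and per the labels' protocols libraries came from the NEXTflex Rapid Directional kit. The aligner, the counter and its strand setting are not given in the sources used here. Symbols, exon lengths and positions came from GENCODE M21, which named 53620 identifiers. The members and gene lists were chosen with earlier results of these data known, so no list was given a test of its own.

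The default low-count filter of edgeR 4.0.16 (filterByExpr, minimum count 10, minimum total 15) kept 14068 genes. Library sizes were TMM-scaled (trimmed mean of M values), and counts were fitted with the robust quasi-likelihood F test over all 36 libraries, without covariates. P-values were adjusted by Benjamini-Hochberg within each contrast over all tested genes, with a threshold of 0.05. Standard errors are the fold change divided by the root of F, and a prior count of 2 entered log2 CPM. Co-variation and levels were described without a test. The scripts were tested on simulated data. Genes were named by a rule: members past the threshold, the highest per length and the smallest p of each complex and contrast, and a fixed list of well-known subunits. Members named beyond it, such as Ndufs8, Atp5c1 or those in short counts, were chosen after their values were seen. Alternatives were other scaling, filters, covariates, tools (DESeq2 1.42.0, limma 3.58.1 voom, sva 3.50.0 with 5 surrogate variables) and leaving out libraries. Those on GC content, length slopes and principal transcripts were chosen after seeing the data.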

Additional observations from a re-analysis of the deposited data

How the results depend on the processing

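In all 55 alternatives were run, 36 of them leaving out 1 library. Median fold changes by complex kept their sign in all 265 values for Red against Control, in all but 1 of 265 for Tangerine against Red, and in all but 35 of 265 for Tangerine against Control. The size moved more: the median over members ranged from -0.17 (GC slope over 0) to -0.022 (limma-voom) for Red against Control and from 0.026 (limma-voom) to 0.11 (GC slope over 0) for Tangerine against Red. No paired analysis was possible because mouse numbers do not repeat across diets. For Red against Control, where 0 members were called, there was 1 call among genes with mean log2 CPM 1 or more and with the length slope as covariate, 2 with DESeq2, 3 with surrogate variables and with the GC slope as covariate, and 4 with limma-voom (3 lower and Ndufv3 higher). For Tangerine against Red, also 0, there was 1 call with limma-voom, with the 2 groups alone and with GC and length trends removed, and 2 with DESeq2, with the GC slope as covariate and with those trends removed without Control 137. For any difference (1 call) there were 2 with DESeq2, surrogate variables and the GC slope as covariate, 3 with limma-voom, and 0 with no low-count filter, the clock score or mouse number as covariate, without Red 186 and Tangerine 216, with GC and length trends removed (with or without Control 137), and in libraries with a GC slope under 0 or over 0. Leaving out 1 library gave 0 to 1 calls in each of these. With calls for Ndufc2 lower on Red came the omission of Red 170 or 204 or Control 189, 208 or 245, and with its call for Tangerine against Red that of Tangerine 160. In libraries with a GC slope over 0 the complex II median for Tangerine against Control was 0.083 and the complex IV median for Red against Control -0.20. Sdhb for Tangerine against Control (-0.020) turned to 0.049 with limma-voom, 0.011 with surrogate variables, 0.033 with a GC slope under 0, and ranged from -0.043 to 0.023 without 1 library. Co-variation within complex II ranged from 0.033 to 0.22 and within complex IV from 0.23 to 0.56 without 1 library. Over all 14068 tested genes the count called for Red against Control was 21, and 167 with DESeq2, 507 with surrogate variables, 1482 with limma-voom and 4 with the clock score. It was 181 with the length slope and 116 with the GC slope as covariate, and 59 of 11041 genes with mean log2 CPM 1 or more. For Tangerine against Red the count was 241, and 421, 867, 732 and 0 in the order DESeq2 to clock score. It was 380 with the GC slope, 333 of 13749 genes with the 2 groups alone, 350 with GC and length trends removed and 382 with those removed without Control 137. For any difference it was 166, and 382 with DESeq2, 1051 with surrogate variables, 1111 with limma-voom and 279 with the GC slope. Where 0 members were called, it was 127 of 27335 genes with no low-count filter, 1 with the clock score and 73 with mouse number. It was 77 of 14060 without Red 186 and Tangerine 216, 207 with GC and length trends removed and 197 with those removed without Control 137. In libraries with a GC slope under 0 it was 1 of 14350, and over 0 it was 42 of 14258. With principal transcripts 1 of 5 complexes kept its highest member. The causes were not tested. At 21290169 or more counts per library, 63 of 78 tested members had a mean of at least 30 CPM.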
